A study of Caenorhabditis elegans with 2 samples.

Results

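The genes described here are the core of the insulin and TOR pathways of Caenorhabditis elegans, and the question is where the homeodomain transcription factor UNC-62 was found at them. They are 10 genes, listed by name as pathway members with earlier results of these data already known, out of 19973 protein-coding genes on the nuclear chromosomes. For each gene, the peaks of chromatin immunoprecipitation followed by sequencing (ChIP-seq) were collected over the gene body and 5 kb upstream, here called the window.

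The single group comprised whole young adults of mixed sex, aged 4 days, of strain OP600. This strain carries unc119(ed3) and the transgene wgIs600, in which unc-62 is fused to TY1, EGFP and FLAG tags and which also holds unc119. There were 2 biological replicates and no second condition, so no test between conditions was possible, and values are given for each replicate side by side. The labels name unc-62 as the antibody and an EGFP fusion in the description. Because whole animals were used, a peak does not say in which tissue the factor was bound.

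In worms, insulin-like peptides bind the receptor DAF-2, which acts through a phosphoinositide kinase and a chain of protein kinases to keep the transcription factor DAF-16 out of the nucleus. The TOR kinase, activated by small GTPases when nutrients are plentiful, drives growth and protein synthesis. Lower activity of either pathway is known to extend lifespan. UNC-62 belongs to the Meis and Homothorax class, whose known binding word is TGACAG.

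The list called on the reads of both replicates, here the pooled list, held 19023 peaks with signal values from 8.57 to 514, a strength given by the authors' peak caller. The 843 strongest of them make up the thresholded list, which passed the irreproducible discovery rate (IDR) criterion and ended at a signal of 31.2. The lists of replicate 1 and replicate 2 held 30000 and 28092 peaks, with medians of 4.71 and 6.82. These 3 longer lists are relaxed and hold background by design, the read depth behind every value is unknown, and no source states that the signal scales of the lists are shared.

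Of the 10 genes, akt-1, daf-16 and rheb-1 had a thresholded peak in the window, 1 each. Over all nuclear protein-coding genes the share was 6.05%. The windows of the 10 genes had a median length of 10.9 kb against 7.03 kb for all genes, and among the 404 genes with windows of at least 20 kb the share was 13.6%, and among the 19569 genes with shorter windows 5.90%. The akt-1 and rheb-1 windows, of 8.94 and 6.87 kb, belong to the shorter class and that of daf-16, of 31.2 kb, to the longer. The other 7 genes had at best peaks of the relaxed lists. In all, 9 genes had a pooled peak in the window, against 72.4% of all genes, and raga-1 had none. At 5 genes, akt-1, akt-2, daf-16, let-363 and rheb-1, a pooled summit lay close to a start (up to 1000 bp before or 200 bp after it), against 33.3% of all genes.

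Sequences are shown around the strongest peak of 4 of the 9 genes with a pooled peak, so they do not represent all 9. Of the strongest peaks not shown, those of daf-16 and let-363 held TGACAG within 50 bp of the summit. Those of age-1, akt-2 and daf-18 did not. The stretch of ftt-2, the strongest peak in the other pathway lists described further below, is also shown and holds the UNC-62 word beside its summit. Each is 201 bases of build WBcel235, the same assembly as ce11, centred on the pooled summit and written 5′ to 3′ along the strand of the gene. Capitals mark TGACAG and GTAAACA, the known DAF-16 word, each on either strand. The akt-1 stretch is chrV:10245694-10245894 on the plus strand, that of rheb-1 is chrIII:9456230-9456430 on the minus strand, that of daf-2 is chrIII:3026892-3027092 on the minus strand, that of pdk-1 is chrX:1319727-1319927 on the plus strand, and that of ftt-2 is chrX:11608430-11608630 on the minus strand.
akt-1: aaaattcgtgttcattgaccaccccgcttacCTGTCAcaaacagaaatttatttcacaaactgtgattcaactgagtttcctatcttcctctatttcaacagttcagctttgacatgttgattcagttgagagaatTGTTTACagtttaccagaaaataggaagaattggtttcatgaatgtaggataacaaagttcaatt
rheb-1: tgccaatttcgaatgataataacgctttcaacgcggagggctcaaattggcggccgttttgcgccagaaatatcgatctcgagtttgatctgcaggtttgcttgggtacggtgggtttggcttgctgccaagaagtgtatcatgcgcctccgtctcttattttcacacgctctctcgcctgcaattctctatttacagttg
daf-2: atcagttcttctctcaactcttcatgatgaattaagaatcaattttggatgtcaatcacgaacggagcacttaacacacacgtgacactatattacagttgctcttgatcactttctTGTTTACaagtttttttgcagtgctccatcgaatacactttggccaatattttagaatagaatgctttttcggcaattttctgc
pdk-1: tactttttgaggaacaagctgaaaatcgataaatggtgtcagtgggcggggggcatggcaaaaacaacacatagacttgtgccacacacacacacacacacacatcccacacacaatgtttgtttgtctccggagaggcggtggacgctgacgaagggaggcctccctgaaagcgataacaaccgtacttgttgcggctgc
ftt-2: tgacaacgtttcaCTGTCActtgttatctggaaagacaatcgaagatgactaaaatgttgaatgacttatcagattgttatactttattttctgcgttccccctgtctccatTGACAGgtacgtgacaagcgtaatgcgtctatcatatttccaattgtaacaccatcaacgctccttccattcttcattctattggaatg

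The akt-1 stretch held TGACAG once on the opposite strand, beginning 69 bp before the summit (a first-base position of -69), and GTAAACA once on the opposite strand, beginning 36 bp after it. The daf-2 stretch held GTAAACA once and no TGACAG, and those of rheb-1 and pdk-1 held neither word. The ftt-2 stretch held TGACAG on both strands. Their GC contents were 34.3% for akt-1, 48.3% for rheb-1, 35.8% for daf-2, 51.2% for pdk-1 and 38.3% for ftt-2, against a median of 34.8% around all nuclear pooled summits. None of the 5 stretches overlapped an annotated exon.

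**Figure D1:**
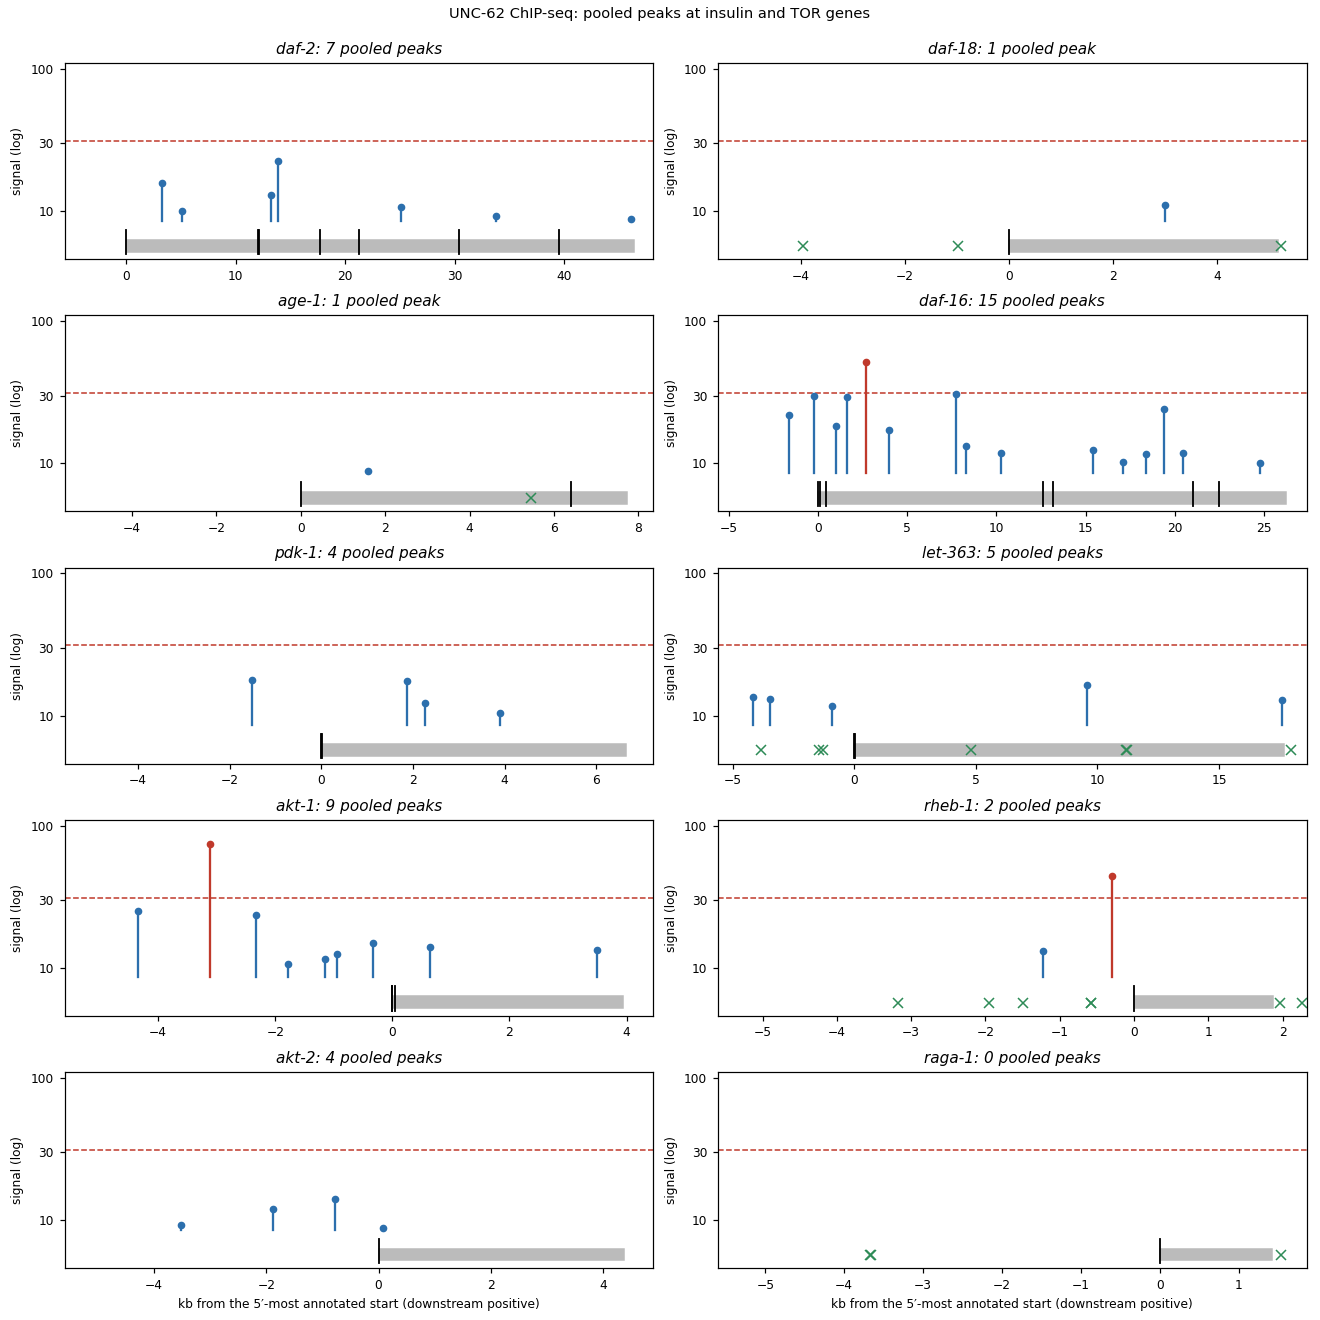
Pooled UNC-62 peaks at the 10 genes, with distance from the 5′-most annotated start in kb on the x axis and signal on a log y axis. Grey bars are gene bodies, black ticks their annotated starts, and green crosses starts of neighbouring protein-coding genes that fall within the plotted range. The nearest start of C12D8.9, 5700 bp upstream of the first akt-1 start, lies outside that range, so the akt-1 panel shows no cross. Red stems are thresholded peaks, blue stems other pooled peaks, and the dashed line is the lowest thresholded signal of 31.2. Red stems appear at akt-1, daf-16 and rheb-1.

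The insulin receptor gene daf-2 (WBGene00000898, III, 2994514 to 3040846, minus strand) had the longest window of the 10, at 51.3 kb with 7 annotated starts, and held 7 pooled peaks, none of them thresholded. This is 0.136 peaks per kb, against a median of 0.157 over all genes. Its strongest peak had a signal of 22.5 (rank 1696) and lay in an intron, 1710 bp downstream of the start of transcript Y55D5A.5b. Replicate 1 gave 6.25 and replicate 2 gave 15.0 at that site, so it was found in both. A neighbouring summit 1123 bp downstream of the same start had 13.0 in the pooled list and 7.60 in replicate 1, and replicate 2 had no overlapping peak.

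The next strongest daf-2 peak, of signal 15.9, lay in the intron behind the most upstream start, 3338 bp from it and within the annotated noncoding RNA gene linc-143. Replicate 1 gave 4.19 and replicate 2 gave 11.4 there. No pooled summit lay upstream of the first daf-2 start. Replicate 1 alone had 3 weak peaks upstream, of 3.33, 5.43 and 3.39, the last within the neighbouring gene cutl-25. The highest replicate 1 peak of the window, 9.18 in the 3′ UTR, was not in the pooled list.

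The kinase genes downstream of the receptor differed widely in their strongest peak. The gene age-1 (WBGene00000090, II, 11519328 to 11527054, minus strand) encodes the catalytic subunit of the phosphoinositide kinase, and its 1 pooled peak, in a coding exon, had a signal of 8.91 at rank 17425. Replicate 1 gave 6.89 there and replicate 2 had no peak anywhere in the window. Replicate 1 also had a peak of 5.55 at 410 bp upstream of the inner start of transcript B0334.8b.1, which the pooled list lacked. Support at age-1 thus came from replicate 1.

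The gene pdk-1 (WBGene00003965, X, 1321344 to 1327986, plus strand) encodes the kinase that activates the AKT kinases. It had 4 pooled peaks, and its starts, 9 bp apart, had none within 1000 bp upstream. The strongest lay 1517 bp upstream of the first start, between genes, with a pooled signal of 17.7, 8.59 (rank 2666) in replicate 1 and 7.68 (rank 10591) in replicate 2. A second peak of nearly the same strength, 17.5, lay in an intron 1877 bp downstream of that start, with 9.06 (rank 2263) in replicate 1 and 6.41 (rank 16148) in replicate 2. Both sites were present in both replicates and both ranked higher in the list of replicate 1. The highest replicate 2 peak of the window, 10.7 (rank 4302), lay at neither site. It met the pooled peak of 10.4 in a coding exon, 3896 bp downstream of the first start, where replicate 1 had no overlapping peak.

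The AKT kinase gene akt-1 (WBGene00000102, V, 10248905 to 10252845, plus strand) carried the strongest peak of the 10 genes. Its thresholded peak (V, 10245634 to 10245953) lay 3111 bp upstream of the first start, in the intergenic stretch shown above, with a pooled signal of 74.3 at rank 71. Replicate 1 gave 23.5 (rank 137) and replicate 2 gave 60.6 (rank 44), the highest peak of the window in each. A stronger pooled peak in the window was found for 0.386% of all genes.

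The neighbouring gene C12D8.9 is transcribed away from akt-1, its nearest start is 2589 bp from the akt-1 summit, and the starts of the pair are 5700 bp apart. The distance to a start therefore does not assign the peak to akt-1. Around it lay a row of further pooled peaks. A summit 4345 bp upstream of the first akt-1 start had 25.2 (8.57 and 18.4 in replicates 1 and 2), and one 2333 bp upstream had 23.6 (13.0 and 11.3). Nearer the gene, the summit 324 bp upstream had 14.9, with 6.96 and 6.93 in the replicates.

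In all the akt-1 window held 9 pooled peaks in 8.94 kb. The resulting 1.01 peaks per kb was reached or exceeded by 0.185% of all genes. Of the 9, 5 were overlapped in both replicates. The summits 1150 bp and 937 bp upstream belonged to overlapping pooled peaks that met the same replicate 2 peak of 12.5 and no replicate 1 peak. A summit 1784 bp upstream lay in the noncoding RNA gene C12D8.25.

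The second AKT gene, akt-2 (WBGene00000103, X, 14147700 to 14152070, plus strand), had 4 pooled peaks and none thresholded. Its strongest, 773 bp upstream of its single start, had a pooled signal of 14.1 at rank 5238, with 10.5 in replicate 1 and 7.10 in replicate 2. The weakest, of 8.76, lay 85 bp downstream of the start in a coding exon and was met by a peak of 3.27 in replicate 1 and none in replicate 2. The most distant, at 3522 bp upstream, lay inside the homeobox gene ceh-89. The strongest pooled values in the windows of the paralogs were thus 74.3 at akt-1 and 14.1 at akt-2. The former peak lay nearer to the start of C12D8.9 than to that of akt-1. Within 1000 bp upstream of the first start, the strongest values were close, 14.9 at akt-1 and 14.1 at akt-2.

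The gene daf-18 (WBGene00000913, IV, 420011 to 425177, minus strand) encodes a phosphatase of the insulin pathway. Its 1 pooled peak, of signal 11.0, lay in a coding exon 3003 bp from the start, was met by 7.73 in replicate 2 and had no counterpart in replicate 1, which had no peak in the whole window. The start of eri-1, at 2216 bp, was nearer to it. Replicate 2 alone had a peak of 7.33 at 642 bp upstream. The start of garr-1, transcribed in the opposite direction, lies 991 bp from that of daf-18. The replicate 2 peak thus sat in a shared intergenic stretch, nearer to the start of garr-1 than to that of daf-18.

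The output of the pathway, the FOXO-type transcription factor gene daf-16 (WBGene00000912, I, 10750498 to 10776703, plus strand), had the most pooled peaks of the 10 genes. It is known for several isoforms made from separate starts, and the annotation lists 7 starts for 11 transcripts. The window of 31.2 kb held 15 pooled peaks, 13 of them in introns and 2 upstream. Of all genes, 0.0651% (13 genes, daf-16 included) held as many. Per kb daf-16 had 0.481, a density that 7.30% of all genes reached.

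The thresholded daf-16 peak (I, 10753025 to 10753344) had a signal of 51.6 at rank 197 and lay in the long intron behind the most upstream cluster of starts, 2225 bp downstream of the start shared by transcripts R13H8.1d.1 and R13H8.1k.1. Its summit also fell in the annotated antisense noncoding RNA gene H36N01.3. Replicate 1 gave 12.5 (rank 850) and replicate 2 gave 40.8 (rank 132). In replicate 2 it was the highest daf-16 peak, and in replicate 1 it was not.

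In replicate 1 the highest peak was met by another intronic site, 1653 bp downstream of the first start, with 18.3 (rank 294) against 11.9 (rank 3239) in replicate 2 and 29.5 in the pooled list. The order of these neighbouring sites therefore differed between the replicates. At 7743 bp downstream of the first start the pooled signal was 30.9, with 10.02 and 21.8 in replicates 1 and 2. At 192 bp upstream of the first start it was 29.9, with 13.6 and 16.9. These 3 peaks (ranks 936, 862 and 912) fell just below the lowest thresholded value of 31.2. With them, the daf-16 window of 31.2 kb held 4 of the 1000 strongest pooled peaks, and the windows of the other members held 2. The share of all genes holding as many is not given here.

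Of the 15 pooled peaks of daf-16, 7 lay between the start of the d transcript and that of the b transcript, 12143 bp apart. A further 5 lay between the starts of the l and a transcripts. The strongest of these, 1607 bp upstream of the start of R13H8.1a.1, had 24.2, with 9.004 in replicate 1 and 14.2 in replicate 2. Another of them lay 533 bp upstream of the same start with 11.9, and had 7.27 in replicate 1 and no counterpart in replicate 2. Of the 15 peaks, 9 were overlapped in both replicates.

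Within 50 bp of the summit, TGACAG occurred on either strand at 4 of the 15 daf-16 peaks, those of signal 18.4, 29.5, 51.6 and 30.9. All 4 lay between the d and b starts. The strong peak at the first start (29.9) had none. At the thresholded peak the word began 45 bp before the summit, and a copy on the opposite strand began 57 bp before it. Among the other 9 genes the word occurred at 1 pooled peak, in let-363, giving 5 of 48 in all (10.4%, exact 95% interval 3.47 to 22.7%) against 5.79% of nuclear pooled peaks and 22.0% of nuclear thresholded ones. That interval treats the 48 peaks as independent, although 4 of the 5 matches were at daf-16. GTAAACA, a word chosen after the values were seen, lay within 50 bp of 4 of the 48 summits, 2 at akt-1 and 1 each at daf-2 and let-363, against 1.67% of nuclear pooled peaks. None was at daf-16. A match of letters is not a bound site.

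**Figure D2:**
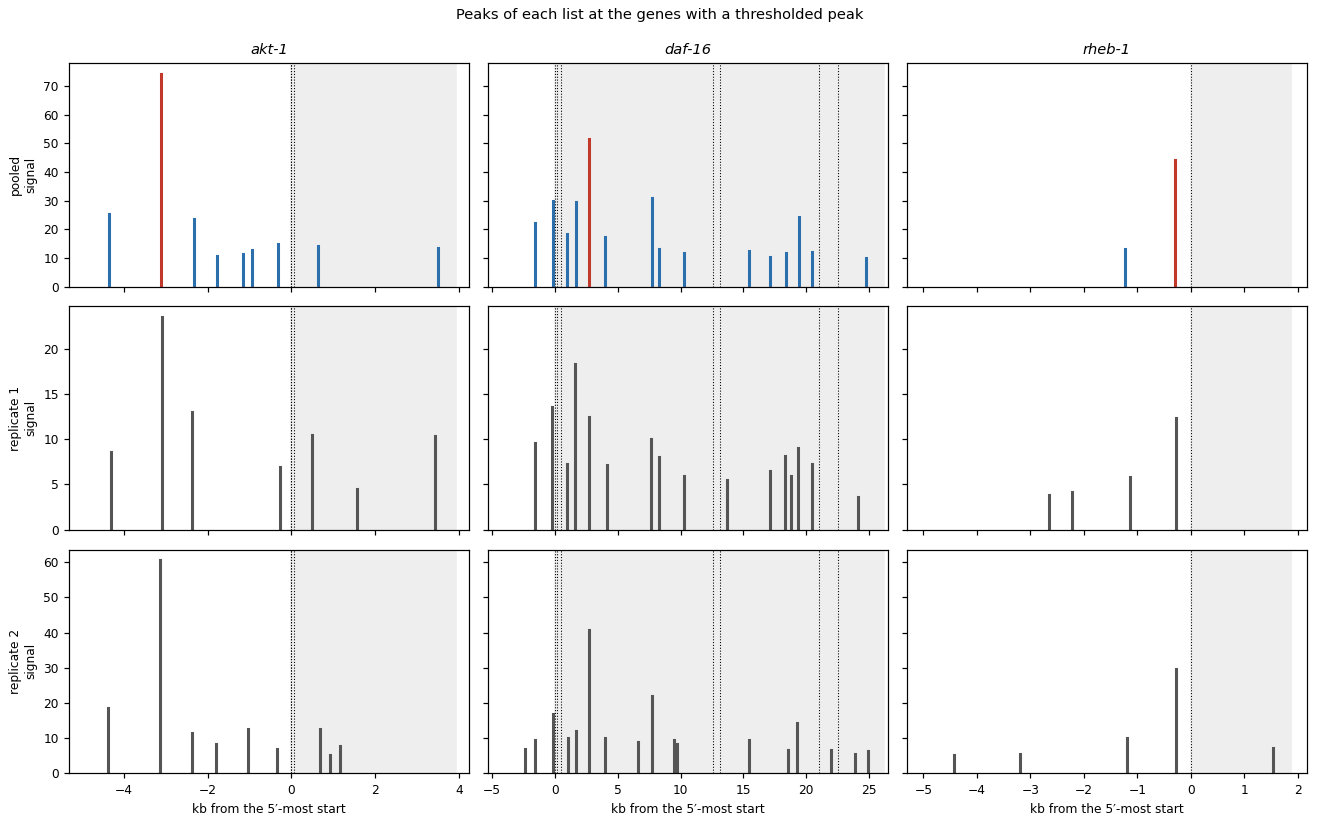
Peaks at akt-1, daf-16 and rheb-1 in the pooled list (top), replicate 1 (middle) and replicate 2 (bottom), with distance from the 5′-most start in kb on the x axis and linear signal on the y axis, whose scale differs between rows. Grey marks the gene body, dotted lines annotated starts and red the thresholded peaks (74.3, 51.6 and 44.2); in replicate 1 the tallest daf-16 stem, 18.3, is not at the thresholded site.

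On the TOR side, the kinase gene let-363 (WBGene00002583, I, 5245743 to 5263424, plus strand) had 5 pooled peaks, none thresholded. The strongest, 16.4, lay in a coding exon 9556 bp downstream of the first start, with 3.78 in replicate 1 and 11.7 in replicate 2. The nearest start, 1613 bp away, was that of B0261.6. Neither replicate had its highest let-363 peak at that site. In replicate 1 the highest was 9.53, in an intron 16017 bp downstream of the first start, and was not in the pooled list. The pooled summit nearest the let-363 start, 902 bp upstream with a signal of 11.6, lay inside mrpl-47, a mitochondrial ribosomal protein gene on the same strand. It was 394 bp downstream of the mrpl-47 start. Replicate 2 gave 12.3 there, its highest value in the window, and replicate 1 had no overlapping peak. The remaining ones lay on both sides of the start of C32E12.4 (13.5 and 13.1) and at the 3′ end of let-363, 338 bp upstream of vep-1 (12.9). So 4 of the 5 lay within 1000 bp of the start of another gene.

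The GTPase gene rheb-1 (WBGene00010038, III, 9454163 to 9456030, minus strand), whose product activates TOR, had the thresholded peak nearest to an own start. Its summit (peak III, 9456170 to 9456489) lay 300 bp upstream of the start of rheb-1 and 278 bp upstream of that of spk-1, a kinase of splicing factors transcribed in the opposite direction. The starts are 578 bp apart, so the summit lay close to the middle of a shared promoter region and cannot be given to either gene by position. The pooled signal was 44.2 at rank 315, with 12.3 (rank 912) in replicate 1 and 29.6 (rank 335) in replicate 2. In replicate 1 it was not among the 843 strongest peaks, and neither was the thresholded daf-16 site. The second pooled peak, of 13.1, lay within spk-1, with 5.87 and 9.99 in the replicates.

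The gene raga-1 (WBGene00006414, II, 11301359 to 11302776, plus strand) encodes the Rag GTPase that links amino acids to TOR. It had no pooled peak. Replicate 1 had 1 peak of 6.50 (rank 6447), in an intron 188 bp downstream of the start, and replicate 2 had 1 of 7.61 (rank 10854), 2369 bp upstream within saps-1. The replicates did not share a site.

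Over the 10 genes the windows held 48 pooled peaks, of which 21 lay in introns, 13 between genes, 7 in coding exons, 5 upstream within another gene and 2 in the 3′ UTR. Both replicates overlapped 26 of them by at least 1 bp (54.2%, exact 95% interval 39.2 to 68.6%), against 44.3% of nuclear pooled peaks. The interval covers counting of peaks alone, and peaks of 1 gene are not independent. A further 9 were met in replicate 1 alone, 12 in replicate 2 alone and 1 in neither. Of the 48, 36 belonged to the stronger 50% of the pooled list, so the 54.2% and the 44.3% describe peaks of unlike strength. Where both had a peak, replicate 2 had the higher signal at 17 of 26, and at 80.6% of the 8415 nuclear pooled peaks found in both. The median ratio of replicate 1 to replicate 2 was 0.696 at the 26 and 0.658 at the 8415, on scales not stated to be shared.

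**Figure D3:**
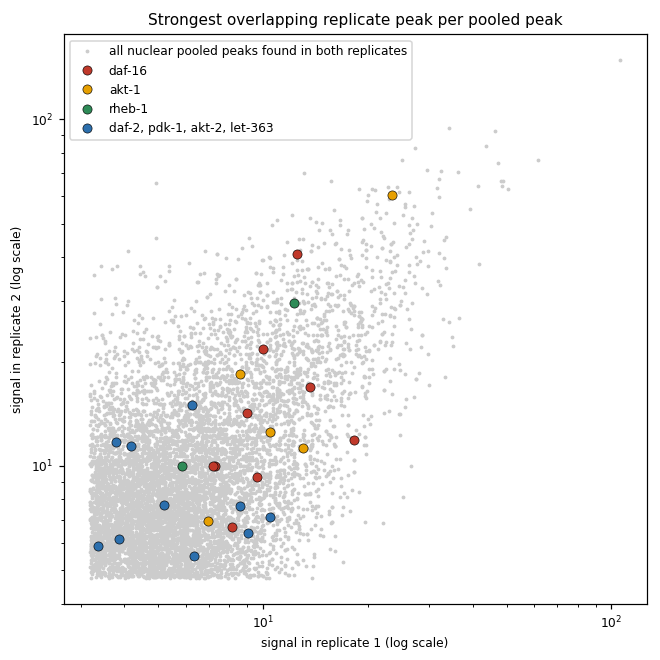
Signal of the strongest overlapping peak in replicate 1 (x axis) and replicate 2 (y axis), both log scales, for the pooled peaks found in both replicates. Grey points are the 8415 nuclear peaks and coloured points the 26 at the pathway genes; the akt-1 point at 23.5 and 60.6 lies toward the upper right, and the daf-16 point at 18.3 and 11.9 lies to the right of the thresholded daf-16 point at 12.5 and 40.8.

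Other genes of the pathways were taken from 4 lists: ligands, modulators of insulin signalling, TOR and nutrient genes, and known DAF-16 targets. Of the 119 genes found in the annotation, 17 had a thresholded peak in the window (14.3%), from 15 distinct peaks, beside the 6.05% of all genes given above. By list these were 5 of 39 ligands, 4 of 25 modulators, 4 of 26 TOR and nutrient genes and 4 of 29 DAF-16 targets.

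Among the ligands, ins-7 had a peak of 47.5 in an intron 123 bp from its start (17.1 and 30.4 in replicates 1 and 2), and the same peak lay in the window of ins-8. The starts of htas-1 and ZK1251.3 lay 811 and 936 bp from that summit. A peak of 33.8 lay 603 bp upstream of ins-39, with 14.0 and 18.04 in the replicates. One of 32.7 was shared by the windows of ins-12, in an intron 354 bp from the start, and ins-11. So 5 ligand genes had 3 peaks.

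The strongest peak of the modulators was at ftt-2, which encodes an adaptor that binds phosphorylated DAF-16. It lay 3111 bp upstream, between genes, with 85.9 at rank 40 and 22.8 and 63.7 in replicates 1 and 2. The gene eak-4, known to act beside akt-1, had 60.1 (19.8 and 39.7), with the start of F53B2.8 only 51 bp away. The peak of smk-1, a DAF-16 cofactor, had 44.6 (7.44 and 35.3) and lay 358 bp from the start of vps-60. The zinc finger gene pqm-1, whose product is known to act in opposition to DAF-16, had 32.4 (14.8 and 20.6) at 1361 bp upstream with no nearer start.

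Of the TOR and nutrient genes, lgg-1, which encodes an autophagosome protein, had the strongest peak, 65.5 at 864 bp upstream of its nearest start (27.2 and 35.2 in replicates 1 and 2). The folliculin gene flcn-1 had 40.3 (6.50 and 34.0). The S6 kinase gene rsks-1, a target of TOR, had 38.7 at 1514 bp upstream (11.6 and 28.4), and hlh-30, the TFEB-type regulator of autophagy genes, had 32.5 (13.4 and 18.7). All 4 had a start of their own nearest to the summit. The DAF-16 targets differed in this respect, as did eak-4, smk-1, ins-8 and ins-11 above. The peaks of icl-1 (60.0), fat-5 (46.1), fat-7 (33.1) and ttr-5 (32.8), a glyoxylate cycle gene, fatty acid desaturase genes and a transthyretin-like gene, lay nearer to the starts of srh-2, str-77, ugt-39 and C40H1.7. For fat-5 the distances were close, 2978 bp to str-77 and 3079 bp to its own start.

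**Figure D4:**
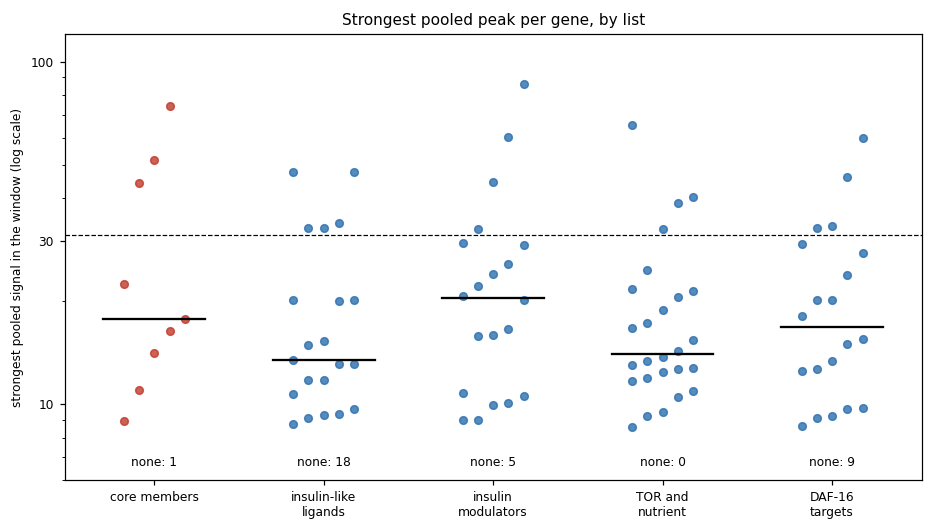
Strongest pooled signal in the window of each gene (log y axis), by list on the x axis; points are genes, bars medians over genes with a pooled peak, the dashed line is 31.2, and the number below each list counts genes with no pooled peak. The medians run from 13.5 for the ligands to 20.4 for the modulators, with 17.7 for the 10 core genes and 13.0 over all genes with a pooled peak.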

How the data were processed

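The 4 lists of ChIP-seq peaks on build ce11 describe a single group with 2 biological replicates, per the labels. Per the deposited README texts, peaks were called on each alignment against a control (replicate lists) and on both alignments together (pooled list). IDR applied to these gave the thresholded list. The sources used here name no aligner, caller or settings. The signal values as deposited by the authors rank peaks within a list, and their scale is not stated. The ce10 lists were not used here.

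Genes and starts were those of Ensembl release 115 (WBcel235), with sequence of the same assembly; all 10 members matched. A peak belonged to a window by its summit, and a summit in several windows counted for each. A replicate value is that of the strongest replicate peak overlapping the pooled peak by at least 1 bp. Coordinates are 1-based. The members and lists were chosen with earlier results of these data known. Named genes were the members, at most 4 genes with the strongest thresholded peak of each other list (ties kept), and neighbours with a start nearer to, or within 1000 bp of, such a peak or the strongest pooled peak of a member; a few others near weaker peaks were named after their values were seen. Of the 119 symbols listed, ins-38 was not matched and hsp-16.1 matched 2 gene identifiers, giving 119 genes. The counting of peaks within windows was tested on simulated peaks for 200 genes, with every count recovered. The simulated windows were defined in the same way as the real ones, so the definition of the window was not tested. Python 3.11.15, numpy 2.4.6, pandas 2.3.3, scipy 1.17.1 and matplotlib 3.10.9 were used.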

Additional observations from a re-analysis of the deposited data

How the results depend on the processing

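Of 38 recomputed values, 32 stayed within 1.5 times the reported count or, for shares, within its interval. A fall from 3 genes to 2, as with 1 kb upstream and in replicate 1 alone, counted as staying, so the tally says little about that count. When each peak went to the gene with the nearest start alone, 1 of the 10 genes (daf-16) kept a thresholded peak, from 1 peak, as did 9 of the 119 other pathway genes, against 3.15% of all genes. With 1 kb upstream 6 of the 119 had one (3.08% of all genes), and with the stronger 50% of the thresholded list 9 (3.01% of all genes), where the share of all genes was 6.05% as reported. TGACA in place of TGACAG matched 33.3% of the 48 peaks, against 23.6% of nuclear pooled peaks. Among the 843 strongest peaks of a single replicate, akt-1, daf-16 and rheb-1 had one in replicate 2 (3 genes) and akt-1 and daf-16 in replicate 1 (2 genes). So did 15 of the 119 in replicate 2 and 13 in replicate 1. Over all genes the share was 5.89% in replicate 2 and 6.08% in replicate 1. The thresholded daf-16 site, at rank 850 in replicate 1, was not among its 843 strongest, and daf-16 counted through its sites at ranks 294 and 683. The akt-1 call ended with 1 kb upstream. With the peaks of either replicate alone in place of pooled ones, 6 genes had a peak at a start. This added daf-18 with replicate 2, and age-1 and raga-1 with replicate 1, where let-363 dropped out. The share of all genes is not given for these replicate peaks, and the 33.3% reported above holds for the pooled list alone. No paired analysis was possible because there was 1 group. Unknown read depth limits how far an absent weak peak can be read.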
